A study of Mus musculus with 9 samples.

Results

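Apoe and 9 further genes of cholesterol efflux and its control (Abca1, Abcg1, Ch25h, Nr1h2, Nr1h3, Mylip, Lpl, Soat1 and Lpcat3) were described in cultured mouse kidney tubule cells, 10 genes of the 31167 in the deposited table. They were found by gene symbol, and each symbol matched 1 row. The set was chosen because Apoe had 1 of the largest falls in EGR1OV, so the EGR1OV values of the members, including which of them pass the threshold for a call, are given as a description and support no finding. The comparison of H/R with Sham is the one that is read as a test for them.

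RNA sequencing was done on primary renal tubular epithelial cells of C57BL/6 kidney, with 3 libraries in each of 3 groups. Sham cells were the negative control. H/R cells, a culture model of ischemia and reperfusion, had 6 h of hypoxia at 1.0% oxygen in glucose-free medium, then 18 h of reoxygenation in complete medium. EGR1OV cells had received an overexpression plasmid for Egr1, a zinc finger transcription factor, and the study's methods give a Cytomegalovirus promoter, which is active in most cell types, for its plasmids in culture. The labels give EGR1OV no hypoxia and name no empty plasmid for Sham or H/R, so the effects of Egr1 and of transfected DNA cannot be told apart. They also do not say whether the libraries of a group came from separate animals or cultures, so every p-value measures the spread between these libraries, which may be technical.

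Apolipoprotein E coats lipoprotein particles and takes up cholesterol that cells release, and macrophages are among its main sources outside the liver. Release starts at the membrane pumps Abca1 and Abcg1. Both pump genes, Apoe and several of the other genes here are switched on by the liver X receptors Nr1h3 (LXR alpha) and Nr1h2 (LXR beta), nuclear receptors that bind DNA with retinoid X receptors when oxysterols (oxidized cholesterol) build up. In kidney tubules, cholesterol is taken up from filtered and circulating lipoproteins and also made by the cells.

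Values are FPKM, read fragments scaled by exon length and library size, which correct for gene length, so the levels of different genes can be set side by side. Differences between groups are on the log2(FPKM + 1) scale, which understates the change of genes near or under 1 FPKM. A gene was called at a Benjamini-Hochberg adjusted p under 0.05 in limma over all 13985 genes tested and a difference, on that scale, of at least 1.2-fold (H/R against Sham) or 1.3-fold (comparisons with EGR1OV). Recovered depth was 16183616 to 18384020 reads per library. As a check of the labels, the Egr1 level of EGR1OV was 42.6 ± 2.84 FPKM, against 6.40 ± 0.443 for Sham and 7.88 ± 0.599 for H/R (SD, n = 3 each). In 4 libraries (Sham 3, H/R 2, H/R 3 and EGR1OV 3) the highest gene was Gm23935, at 9378 to 21700 FPKM against 1494 to 4188 in the other 5. The epithelial markers Krt8, Krt18 and Cdh1 were high in Sham (1014, 685 and 86.2 FPKM), and the proximal tubule genes Lrp2, Aqp1 and Cubn were low (3.60, 1.3 and 0.540 FPKM). Slc34a1, Umod, Slc12a1 and Slc12a3, which define tubule segments, were at or near 0.

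The promoters of Apoe and Abca1 are shown because Apoe had the lowest EGR1OV level relative to Sham of the 10 genes and because Abca1 held the only match to the motifs searched. Each is the 250 bases before the RefSeq start (GRCm38.p6), written on the gene's own strand, 5′ to 3′. Apoe lies at chr7:19699189-19699438 and Abca1 at chr4:53159896-53160145, both on the minus strand. Capitals mark a match to a relaxed LXR element.
Apoe: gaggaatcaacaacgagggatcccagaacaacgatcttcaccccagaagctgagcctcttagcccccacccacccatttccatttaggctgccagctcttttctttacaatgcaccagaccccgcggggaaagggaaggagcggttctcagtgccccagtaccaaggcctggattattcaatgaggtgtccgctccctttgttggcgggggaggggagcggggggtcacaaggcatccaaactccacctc
Abca1: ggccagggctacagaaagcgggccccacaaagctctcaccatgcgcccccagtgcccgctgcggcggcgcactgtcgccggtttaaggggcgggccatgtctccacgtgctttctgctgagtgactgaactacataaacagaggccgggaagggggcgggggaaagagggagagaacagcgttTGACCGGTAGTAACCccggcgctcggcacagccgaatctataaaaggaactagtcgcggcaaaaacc

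RefSeq windows from 250 bases before to 50 after a start were available for 8 of the 10 genes (11 windows in all, Abcg1 and Lpl having none here). They were searched on both strands for the LXR element (AGGTCA repeated after 4 bases of any kind), for a relaxed form (GGTNA repeated after 5 bases of any kind) that contains every match of the first, for the Egr1 site GCGNGGGCG, for the interferon-stimulated response element (GAAA repeated after 2 bases of any kind) and for the sterol regulatory element TCACNCCAC. Of 32851 windows in the table, 0.0152% held the strict LXR element, 0.718% the relaxed one, 5.55% the Egr1 site, 3.44% the interferon element and 1.24% the sterol element. The Abca1 match, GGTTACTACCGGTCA on the strand opposite to the gene, covers bases -67 to -53 from the start. A match is a run of letters and not a measured site, and nothing about binding follows where there is none.

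**Figure D1:**
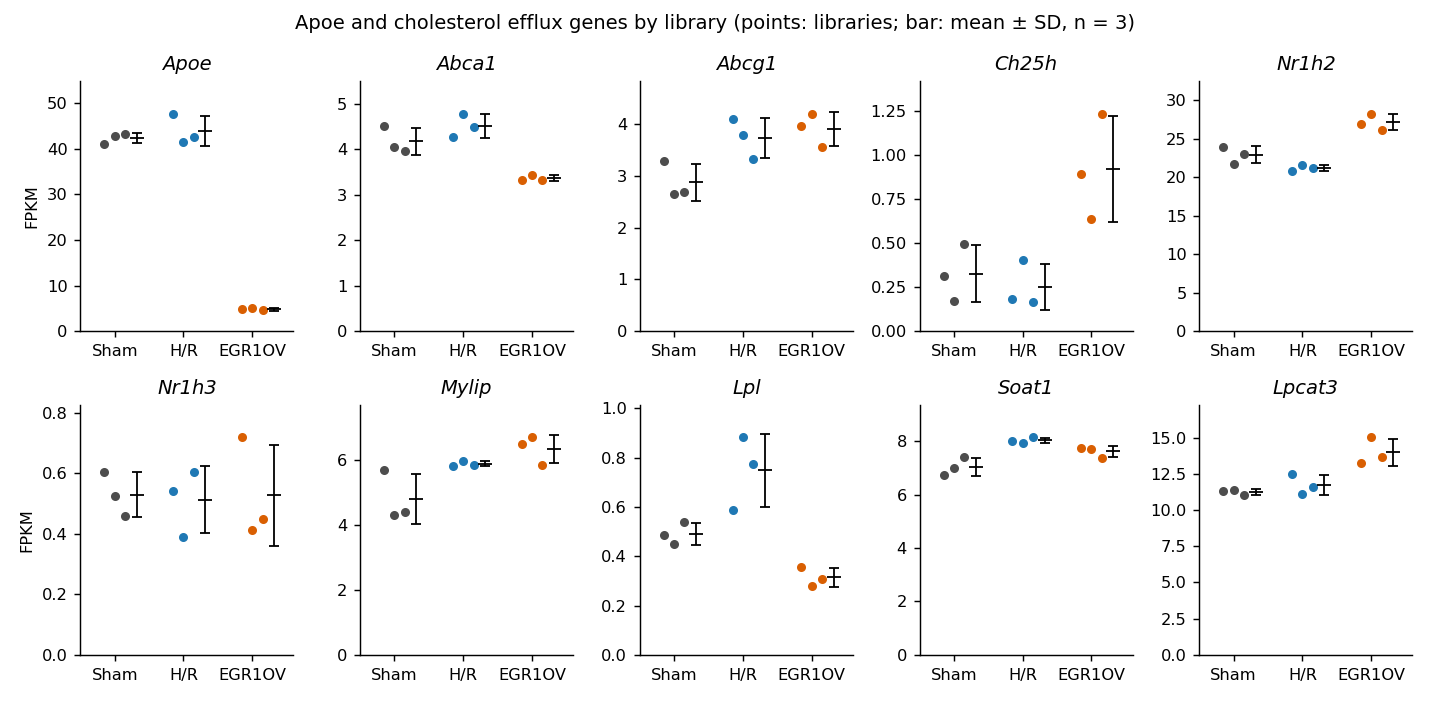
FPKM (vertical axes, each starting at 0) of the 10 genes in the 9 libraries, with Sham in grey, H/R in blue and EGR1OV in orange; points are libraries and bars are mean ± SD (n = 3). The 3 EGR1OV libraries of Apoe sit at 4.56 to 5.18 FPKM, under all 6 others, while Nr1h3 overlaps across the groups.

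Apoe (ENSMUSG00000002985, protein-coding, chromosome 7 from 19696109 to 19699188, minus strand, GRCm38) was at 41.2, 42.8 and 43.2 FPKM in Sham. In H/R the values were 47.7, 41.5 and 42.5 FPKM, which overlapped Sham. In EGR1OV they were 4.79, 5.18 and 4.56 FPKM. Every EGR1OV library lay far under every other library, and the spread within groups was small beside that gap. The counts behind these values were 1447 to 1651 reads in Sham and H/R and 164 to 181 in EGR1OV, so depth does not limit the comparison. The mean was 42.4 ± 1.08 FPKM in Sham and 4.84 ± 0.314 in EGR1OV (SD, n = 3 each), a ratio of 0.114. The difference of EGR1OV from Sham was -2.89 (SE 0.056), and from H/R -2.94 (SE 0.056). These are the values for which the gene was chosen. In the order of all tested genes Apoe had the second-lowest difference from Sham, between Lyz2 at -3.19 and Acta1 at -2.66. By level it lay above 92.1% of tested genes in Sham and 92.5% after H/R, and above 44.0% in EGR1OV.

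Apoe did not differ detectably between H/R and Sham. The difference was 0.05 (SE 0.056, limma adjusted p 0.627), with an exact permutation p of 0.7 (two-sided). Over the alternatives that kept more than a single H/R library, the limma adjusted p was 0.361 to 0.915 and the difference -0.01 to 0.09. Without the 4 Gm23935-high libraries the difference was 0.18, but there H/R 1, the highest H/R library for Apoe, stood alone for H/R.

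Genes that flank Apoe on chromosome 7 were read for context, within 50000 bases on either side, a window chosen after the Apoe values were known. Apoc1 and Apoc4, apolipoprotein genes of the same cluster, were at or near 0 in all groups (group means of 0 to 0.226 FPKM). Tomm40, a mitochondrial import gene whose 3′ end lies just upstream of Apoe, was at 11.4 ± 0.541 FPKM in Sham and 12.1 ± 0.345 in EGR1OV (difference 0.08, SE 0.045, limma adjusted p 0.204). Nectin2, a cell adhesion gene, rose from 29.1 ± 0.555 to 44.7 ± 2.01 FPKM (0.60, SE 0.039, limma adjusted p 1.74e-06). Clptm1 was at 23.5 ± 0.139 and 30.7 ± 0.221 FPKM (0.37, SE 0.028, limma adjusted p 5.03e-06), a rise that stayed just under 1.3-fold on the log2(FPKM + 1) scale. None of the tested neighbours was lower in EGR1OV.

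The macrophage marker list moved with Apoe in EGR1OV. Of its 18 genes 15 were tested, and 12 were called lower and 2 higher in EGR1OV against Sham (1 higher under quantile normalization). Over all genes tested 6.51% were called lower and 9.87% higher. The median difference was -1.28 in the list, against 0.02 over all genes tested. The highest of them in Sham were Lyz2, C1qa and C1qb, a lysozyme and 2 complement chains made by macrophages. Lyz2 went from 57.7 ± 1.62 to 5.46 ± 0.588 FPKM (-3.19, SE 0.061, limma adjusted p 2.74e-10), and C1qa from 31.1 ± 1.22 to 4.498 ± 0.279 (-2.55, SE 0.047, limma adjusted p 2.43e-10). C1qb differed by -2.24 (SE 0.105, limma adjusted p 1.77e-07). The 2 called higher were Cd14 (1.55) and Mpeg1 (0.42), which were named after their values were seen. Summed over the 18 markers, the level was 183 to 188 FPKM in Sham, 155 to 168 in H/R and 65.6 to 74.5 in EGR1OV, and none of the markers was at 0 in every library. Apoe per unit of that sum was 0.225 to 0.229 in Sham, 0.254 to 0.285 in H/R and 0.0643 to 0.0779 in EGR1OV, and these ranges did not overlap. In EGR1OV, however, Cd14 and Mpeg1 made up 50.9% to 53.1% of the sum, against 9.68% to 10.97% in the other groups. Without them the ratio was 0.131 to 0.166 in EGR1OV, against 0.250 to 0.255 for Sham and 0.285 to 0.318 for H/R. Against Lyz2 alone the direction turned relative to Sham only. Apoe per Lyz2 was 0.781 to 1.03 in EGR1OV, above Sham at 0.731 to 0.738 and overlapping H/R at 0.872 to 1.00. These further ratios were chosen after the values were seen. The part of macrophages in the Apoe values was not tested, and in bulk RNA fewer cells of a type and less RNA per cell cannot be told apart.

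**Figure D2:**
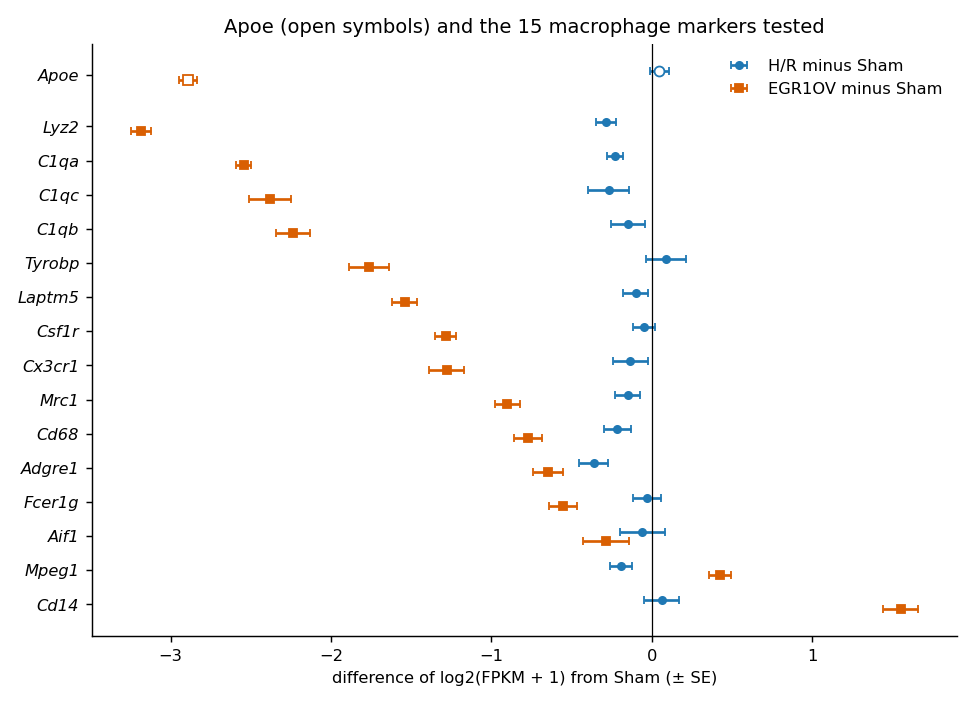
Differences of log2(FPKM + 1) from Sham (horizontal axis, ± SE) for Apoe (open symbols, top row) and the 15 macrophage markers tested, with H/R in blue and EGR1OV in orange. Apoe in EGR1OV, at -2.89, lies between Lyz2 (-3.19) and C1qa (-2.55), while Cd14 and Mpeg1 lie on the other side of 0.

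After H/R 13 of the 15 markers, like Apoe, were not called. The other 2 were called lower, Lyz2 (-0.29, limma adjusted p 0.0191) and Adgre1 (-0.36, limma adjusted p 0.0359), beside 2.65% of all genes. The list median was -0.15 against -0.03 over all genes, and under median-ratio scaling 1 was called lower. Without the 4 Gm23935-high libraries, which left a single H/R library, the list median was -0.07. Adgre1, too, was named after its value was seen. Of the other lists, that of tubule markers was higher in level, summing to 1978 to 2018 FPKM in Sham and 1274 to 1381 in EGR1OV. Most of that sum came from the keratins Krt8 (1014 ± 11.8 FPKM in Sham, 618 ± 37.5 in EGR1OV) and Krt18 (685 ± 13.3 and 412 ± 15.9). Markers of the remaining cell types were lower. The endothelial list summed to 9.26 to 9.71 FPKM in Sham and 6.52 to 7.18 in EGR1OV, the fibroblast list to 32.8 to 34.5 and 37.9 to 42.9, and the podocyte list to 8.89 to 9.64 and 10.4 to 10.9. The adipocyte list, relevant to Lpl, summed to at most 0.305 FPKM in any library, and Plin1 was at 0 in all 9. Of 10 tested tubule markers 5 were called lower in EGR1OV (among them Krt8, -0.71, and Krt18, -0.73), beside 6.51% of all genes. In the other direction 1 was called higher, beside 9.87% of all genes (Epcam, 0.39, which falls short of the threshold under median-ratio scaling and quantile normalization). The 4 not called were Pax2 (0.36), Cdh1 (0.23), Pax8 (0.04) and Cdh16 (-0.30).

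The pumps showed opposite directions in EGR1OV. Abca1, which loads cholesterol onto lipid-poor apolipoproteins (ENSMUSG00000015243, chromosome 4 from 53030787 to 53159895, minus strand), was at 4.52, 4.06 and 3.95 FPKM in Sham and at 4.26, 4.78 and 4.49 in H/R. In EGR1OV it was at 3.33, 3.44 and 3.33 FPKM, under every other library. The difference of EGR1OV was -0.24 from Sham and -0.34 from H/R (SE 0.055 each). Both are smaller than the fold threshold on that scale, but the difference from H/R passed it under median-ratio scaling (-0.39), quantile normalization (-0.45), a pseudocount of 0.1 (-0.41) and limma voom (-0.42). Between H/R and Sham the groups overlapped, with a difference of 0.09 (SE 0.055, limma adjusted p 0.321).

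Abcg1, which passes cholesterol on to lipid-rich particles (ENSMUSG00000024030, chromosome 17 from 31057698 to 31115777, plus strand), was at 3.29, 2.65 and 2.68 FPKM in Sham. In H/R it was at 4.09, 3.79 and 3.33, and in EGR1OV at 3.97, 4.20 and 3.55. All 6 libraries of the treated groups lay above the 3 Sham libraries, and the treated groups overlapped each other. The gap was narrow, with Sham 1 at 3.29 FPKM and H/R 3 at 3.33. The difference was 0.29 after H/R (SE 0.086, limma adjusted p 0.0606, exact two-sided permutation p 0.1) and 0.34 in EGR1OV (SE 0.086). After H/R the adjusted p was 0.0137 to 0.277 over the alternatives, and it fell under 0.05 in 5 of them, one being the fit without Sham replicate 1, the highest Sham library (0.37, limma adjusted p 0.0412). Both comparisons share the Sham libraries. The read counts of 180 to 283 follow from an exon length of 4066 bases, shorter than the 7298 bases of GENCODE M21, so the gene model behind this row is not that of M21.

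Of the receptors, Nr1h2 was the higher by far and Nr1h3 was close to the lower limit of the test. Nr1h2 (ENSMUSG00000060601, chromosome 7 from 44549616 to 44553951, minus strand) was at 23.95, 21.7 and 23.1 FPKM in Sham, 20.8, 21.6 and 21.2 in H/R, and 27.0, 28.3 and 26.2 in EGR1OV. The 3 groups did not overlap, with H/R lowest and EGR1OV highest. The difference after H/R was -0.11 (SE 0.041, limma adjusted p 0.127, exact two-sided permutation p 0.1), which is not past the threshold. In EGR1OV it was 0.23 from Sham and 0.34 from H/R (SE 0.041 each), and quantile normalization brought these to 0.15 and 0.24.

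Nr1h3 (ENSMUSG00000002108, chromosome 2 from 91184061 to 91202834, minus strand) was at 0.605, 0.525 and 0.458 FPKM in Sham. It was at 0.541, 0.389 and 0.605 in H/R and at 0.718, 0.414 and 0.449 in EGR1OV. All 3 groups overlapped. These levels rest on 17 to 30 reads per library. The difference of H/R from Sham was -0.02 (SE 0.102, limma adjusted p 0.935). In Sham its mean of 0.529 FPKM lay above 2.67% of tested genes, against 84.0% for Nr1h2.

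Ch25h, the enzyme that makes the oxysterol 25-hydroxycholesterol and is known as an interferon-induced gene (ENSMUSG00000050370, chromosome 19 from 34473786 to 34475135, minus strand), was the lowest of the 10 in Sham. It was at 0.315, 0.170 and 0.494 FPKM in Sham, 0.183, 0.403 and 0.167 in H/R, and 0.892, 0.635 and 1.23 in EGR1OV. The EGR1OV libraries lay above all others, with 20, 14 and 28 reads against 4 to 11, and 3 reads were taken as the floor of detection. The ratio of the means was 2.82 to Sham and 3.66 to H/R. Its mean over the 9 libraries, 0.499 FPKM, was just under the 0.5 FPKM needed for the test, so it has no fitted difference, and between H/R and Sham the exact two-sided permutation p was 0.6. The antisense gene Gm26902 shares 11.5% of its exonic bases in GENCODE M21. That gene, near 0 in all groups, was also highest in EGR1OV (0.180 ± 0.0739 FPKM, against 0.0264 ± 0.0174 in Sham and 0.0252 ± 0.0318 in H/R). How strand was used in the counting is not given in the sources used here, so reads of the pair cannot be told apart.

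Mylip (also called Idol), an LXR-induced ubiquitin ligase that acts on lipoprotein receptors (ENSMUSG00000038175, chromosome 13 from 45389742 to 45412022, plus strand), was at 5.68, 4.31 and 4.38 FPKM in Sham. In H/R it was at 5.81, 5.96 and 5.84, and in EGR1OV at 6.46, 6.68 and 5.84. All 6 treated libraries were above Sham, although the highest Sham library, replicate 1, came close. The difference was 0.25 after H/R (SE 0.085, limma adjusted p 0.0881, exact two-sided permutation p 0.1) and 0.35 in EGR1OV (SE 0.085). Without Sham replicate 1 the value after H/R was 0.36 (limma adjusted p 0.0119), and over all alternatives the adjusted p was 0.0119 to 0.578. As in Abcg1, both differences share the Sham libraries.

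Lpcat3, an LXR-induced enzyme that puts polyunsaturated fatty acids into membrane phospholipids (ENSMUSG00000004270, chromosome 6 from 124663027 to 124704418, plus strand), was at 11.3, 11.4 and 11.03 FPKM in Sham and 12.5, 11.1 and 11.6 in H/R. In EGR1OV it was at 13.3, 15.02 and 13.7, above every other library. The difference of EGR1OV from Sham was 0.29 (SE 0.053), and after H/R it was 0.05 (SE 0.053, limma adjusted p 0.549). The antisense gene Emg1 shares 10.2% of its exonic bases, and was at 8.63 ± 0.447 FPKM in Sham and 9.49 ± 0.213 in EGR1OV (0.12, limma adjusted p 0.0833).

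Soat1, which esterifies cholesterol for storage in droplets (ENSMUSG00000026600, chromosome 1 from 156424525 to 156474331, minus strand), was at 6.75, 6.99 and 7.41 FPKM in Sham. In H/R it was at 8.002, 7.95 and 8.14, and in EGR1OV at 7.76, 7.71 and 7.37. The H/R libraries were tightly grouped and above the other 6, while EGR1OV overlapped Sham. After H/R the difference was 0.17 (SE 0.040, limma adjusted p 0.0305, exact two-sided permutation p 0.1), a change of 1.12-fold that is under the 1.2-fold threshold. The adjusted p was 0.00467 to 0.262 over the alternatives and under 0.05 in 10 of them, and it was above 0.05 when any 1 H/R library was left out (0.0674 to 0.0896), without Sham replicate 1 (0.0926) or replicate 2 (0.0849), without the Gm23935-high libraries (0.262), and in 3 other fits (0.0542 to 0.0657).

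Lpl, the lipase that frees fatty acids from circulating triglycerides (ENSMUSG00000015568, chromosome 8 from 68880491 to 68907448, plus strand), was at 0.488, 0.449 and 0.538 FPKM in Sham, 0.590, 0.883 and 0.775 in H/R, and 0.356, 0.280 and 0.306 in EGR1OV. The groups did not overlap, with EGR1OV lowest and H/R highest, at 48 to 170 reads per library. The ratio of the means was 1.52 for H/R over Sham and 0.640 for EGR1OV over Sham. On the log2(FPKM + 1) scale, which compresses such low values, the differences were 0.23 (SE 0.085, limma adjusted p 0.122, exact two-sided permutation p 0.1) and -0.18 (SE 0.085). On recovered reads with limma voom the difference after H/R was 0.61 (adjusted p 0.00639), past the threshold.

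**Figure D3:**
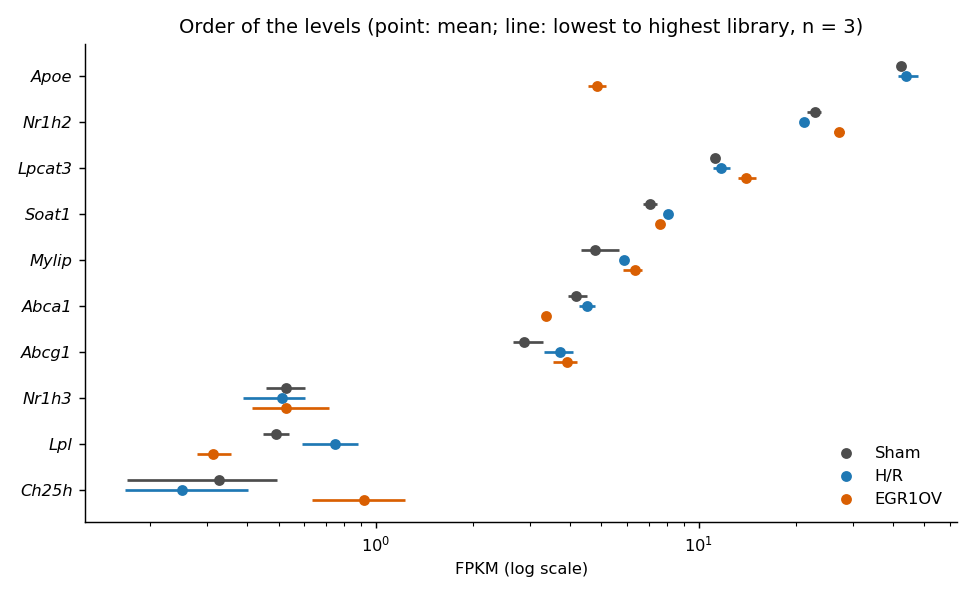
Levels of the 10 genes in FPKM (log axis), ordered by their Sham mean; points are means and lines run from the lowest to the highest library (n = 3), with Sham in grey, H/R in blue and EGR1OV in orange. Apoe heads the Sham order at 42.4 FPKM and stands below Nr1h2, Lpcat3, Soat1 and Mylip in EGR1OV at 4.84 FPKM.

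The order of levels in Sham ran from Apoe through Nr1h2, Lpcat3, Soat1, Mylip, Abca1, Abcg1, Nr1h3 and Lpl to Ch25h. Neighbours overlapped for Mylip and Abca1, for Nr1h3 and Lpl, and for Lpl and Ch25h, and the other neighbours were apart in all libraries. In EGR1OV the order began with Nr1h2, at 27.1 ± 1.05 FPKM, followed by Lpcat3, Soat1 and Mylip, and Apoe came next with no overlap with Mylip above it or Abcg1 below it. In H/R the order of means was that of Sham except that Lpl, at 0.749 ± 0.148 FPKM, stood above Nr1h3, at 0.512 ± 0.111, which it overlapped.

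Set against the background, 0 of the 9 members tested were called in H/R against Sham by limma, where 4.25% of all tested genes were called. Of the 9, 5 had an unadjusted p under 0.05 (28.0% of all genes did) and 1, Soat1, had an adjusted p under 0.05 (11.7% of all genes), while limma voom on recovered reads called 3 (Abcg1, Lpl and Mylip). The median difference over the 9 was 0.09, against -0.03 over all genes. The groups did not overlap in 5 of the 10 members, 4 above Sham and 1 below, and the share over all tested genes was 33.6% (11.8% above and 21.8% below).

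In EGR1OV against Sham 1 of the 9 was called, Apoe, beside 16.4% of all tested genes. The groups did not overlap in 8 of the 10, with 5 above Sham and 3 below, beside 55.7% of all genes (31% above and 24.6% below). In EGR1OV against H/R 2 of the 9 were called, Apoe and Lpl, beside 18.9% of all genes (11.9% higher and 6.94% lower). There 7 of the 10 did not overlap, 3 above and 4 below, beside 58.6% (36.6% above and 22% below). With no fold threshold 6 and 5 members passed in the comparisons with Sham and with H/R, beside 45.9% and 51% of all genes. Nothing is read from these shares, since Apoe was chosen on EGR1OV. Leaving out the 4 Gm23935-high libraries, a choice made after seeing the data, gave 0, 1 and 2 called members in the 3 comparisons, with Nr1h2 in place of Lpl in the last.

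**Figure D4:**
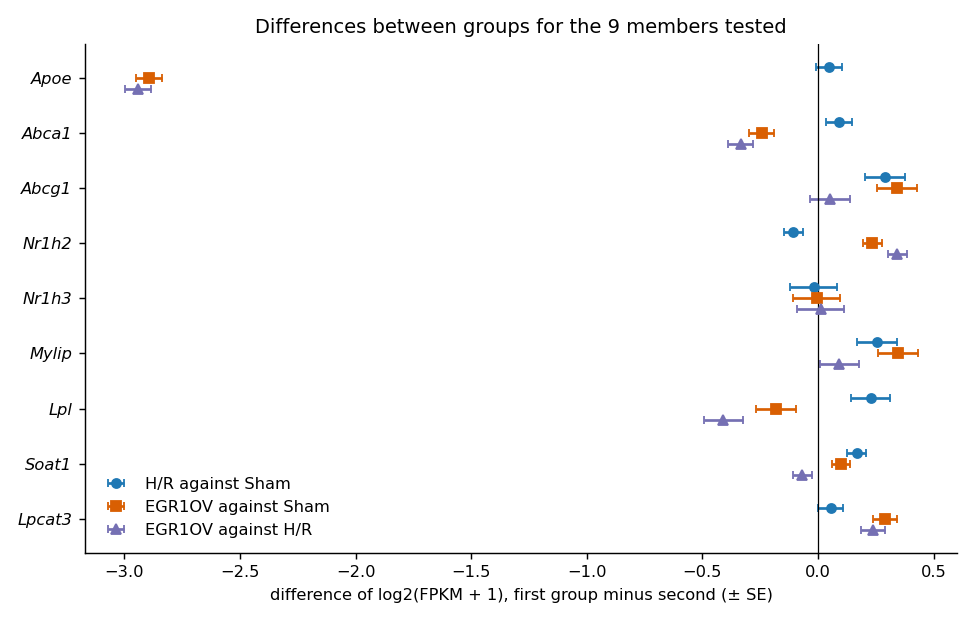
Differences of log2(FPKM + 1) between groups (horizontal axis, first group minus second, ± SE) for the 9 members tested, with circles for H/R against Sham, squares for EGR1OV against Sham and triangles for EGR1OV against H/R. Apart from Apoe in EGR1OV (-2.89 and -2.94), the differences lie between -0.41 and 0.35.

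The genes most like Apoe over the 9 libraries, by Pearson correlation of log2(FPKM + 1) among 7588 genes that averaged 5 FPKM or more, were Palld, Dpysl3, Scin, Tead2 and Tpm1. Their correlations were 0.999, 0.998, 0.997, 0.997 and 0.997 (n = 9 libraries in 3 groups, which share the gap between EGR1OV and the rest). Their EGR1OV differences from Sham were smaller than that of Apoe, from -0.45 in Tead2 to -1.12 in Scin. Palld and Tpm1 encode actin-associated proteins, and Palld went from 113 ± 1.58 FPKM in Sham to 67.9 ± 0.747 in EGR1OV.

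Other genes of the pathway were read from 11 lists, again against 9.87% of all genes called higher and 6.51% lower in EGR1OV, and 1.6% higher and 2.65% lower after H/R. Among 5 tested genes of apolipoproteins and lipoprotein assembly, 1 rose in EGR1OV, Clu (apolipoprotein J), from 1047 ± 10.7 to 1658 ± 28.7 FPKM (0.66, limma adjusted p 7.58e-08). Apob was under 0.03 FPKM in every group mean. Of 5 further sterol and lipid ABC transporters tested, Abca7 (0.77, limma adjusted p 2.45e-06) and Abca2 (0.39, limma adjusted p 0.00103) rose in EGR1OV, and under median-ratio scaling 1 was called higher and 1 lower. The single oxysterol enzyme tested, Cyp7b1, which breaks down 25-hydroxycholesterol, rose from 1.25 ± 0.117 to 4.36 ± 0.562 FPKM (1.25, limma adjusted p 4.78e-06). None of 10 tested LXR partners, coactivators and corepressors was called against Sham in either treated group. Their median difference of EGR1OV from Sham was 0.17, against 0.02 over all genes. In EGR1OV against H/R 2 were called higher, Rxra (0.47) and Rxrb (0.50), beside 11.9% of all genes, and 0 under quantile normalization.

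Of 11 lipoprotein receptor and uptake genes tested, 4 fell and 0 rose in EGR1OV. The largest falls were in Lrp2 (megalin, the tubule's endocytic receptor, -1.05, limma adjusted p 1.01e-07), and in the scavenger receptors Msr1 (-0.96, limma adjusted p 1.23e-05) and Cd36 (-0.81, limma adjusted p 2.93e-05), of which Msr1 and Cd36 are also expressed by macrophages. Among 12 genes of lysosomal and intracellular sterol transport, Npc2, which hands cholesterol out of the lysosome, rose from 48.4 ± 0.926 to 110 ± 2.63 FPKM (1.17, limma adjusted p 1.4e-09), Stard3 rose (0.56, limma adjusted p 9.67e-06) and Cav1 fell (-1.33, limma adjusted p 2.07e-09). Acat2 (-0.43), Mboat2 (-0.50) and Fasn (-0.48) fell and Lipg (0.85) rose in EGR1OV, with limma adjusted p of at most 0.00319. Each was the only called gene of its list. In the same order, these lists were cholesteryl ester and lipid droplet genes, lysophospholipid acyltransferases, other LXR targets, and lipase partners. Under quantile normalization 2, 2 and 3 genes were called lower in the first 3 of these lists. Acat2 encodes an acetyl-CoA acetyltransferase and is not the cholesterol-esterifying gene Soat2, which was too low to test (0.107 FPKM in Sham).

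After H/R the lipase inhibitor Angptl4 rose from 5.87 ± 0.358 to 8.92 ± 0.392 FPKM (0.53, limma adjusted p 0.00171), and the fatty acid desaturase Scd2 rose as well (0.38, limma adjusted p 0.000231). Of 19 sterol synthesis and SREBP2 control genes, 9 rose and 0 fell after H/R, with the largest differences in Idi1 (0.64, limma adjusted p 0.00147) and Insig1 (0.58, limma adjusted p 0.000185), and 3 fell in EGR1OV (among them Idi1 and Msmo1, -0.66 and -0.38). The list median was 0.25 after H/R, and without the 4 Gm23935-high libraries it was 0.21, where 0 of the 19 and 7 of all 13985 genes were called with a single H/R library left.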

How the data were processed

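The authors deposited FPKM values in 1 table, in which each library has its own column. The labels' processing notes name Bowtie2 2.2.3, HISAT2 2.1.0, TopHat2 and the build mm9, but 94.6% of gene positions equal GENCODE M21 (GRCm38), as do those of 8 of the 10 members, so GRCm38 is used. Abcg1 and Ch25h positions are those of the table. The counter and its strand setting are not given in the sources used here. Symbols turned into dates (26) were restored from identifiers.

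Low values were multiples of a step that, with exon lengths, gave each library's depth; 94.1% of 162922 low recovered values were whole within 0.02 reads. The 13985 genes that averaged 0.5 FPKM or more entered 1 limma 3.58.1 fit (R 4.3.3, eBayes with trend) of log2(FPKM + 1) over all 9 libraries, two-sided, after a check on simulated data. With 3 against 3 the exact permutation test cannot go below 0.1. The floor of 3 reads covers counting error only.

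The members and lists were chosen with earlier results of these data known. Named pathway genes are the 3 largest called differences per list in EGR1OV and the 2 largest after H/R, at 1 FPKM or more in the higher group. Some genes that this rule names are not reported here. Motifs and sequences come from RefSeq (GRCm38.p6). Other settings tried were quantile normalization, median-ratio scaling, a replicate block, a pseudocount of 0.1, no filter or one at 5 FPKM, no trend, only the groups compared, other fold thresholds, limma voom on recovered reads, and each library left out. Equal replicate numbers did not pair the libraries, as stated with the other alternatives. The rest was done in Python 3.11.15 (pandas 2.3.3, scipy 1.17.1).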

Additional observations from a re-analysis of the deposited data

Results flagged for a closer look

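In 2 members every H/R library and every EGR1OV library moved away from Sham in opposite directions. The ratio of the means to Sham was 0.925 after H/R and 1.18 in EGR1OV for Nr1h2, and 1.52 after H/R and 0.640 in EGR1OV for Lpl. The fitted difference of EGR1OV from H/R was 0.34 for Nr1h2, which was called only without the 4 Gm23935-high libraries or with no fold threshold, and -0.41 for Lpl, which was called but not without H/R replicate 2, without the 4 Gm23935-high libraries or at 2-fold. It is a description, since the set was chosen on EGR1OV, and the opposite directions from Sham were not tested as such. Outliers within a group were not looked for with 3 libraries.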

How the results depend on the processing

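In H/R against Sham, where 0 members were called, the count was 1 under median-ratio scaling, quantile normalization and the replicate block (Abcg1 each time), 1 with no fold threshold (Soat1), 3 with limma voom on recovered reads (7.12% of all genes), and 0 to 2 with each library left out (2 without Sham replicate 1, Abcg1 and Mylip). In EGR1OV against Sham, where 1 was called, it was 3 with a pseudocount of 0.1 (20.6% of all genes), 2 with no filter (Apoe and Ch25h, 8.04% of all genes), 4 with voom (21.5%), 6 with no fold threshold and 1 to 3 with a library left out (3 without Sham replicate 1 or without EGR1OV replicate 3, Abcg1 and Mylip joining Apoe). In EGR1OV against H/R, where 2 were called, it was 1 at a mean of 5 FPKM or more, where 5 members were tested, 1 at 2-fold, 3 under a pseudocount of 0.1, either scaling and voom (Abca1 joining, 18.3% to 25.3% of all genes), 3 with no filter (Ch25h joining, 9.30%), 5 with no fold threshold and 1 to 2 with a library left out (1 without H/R replicate 2). The cause of these shifts was not tested, apart from the fold thresholds and the filter, which act by construction. Same-numbered libraries of different groups did not deviate together (correlations from -0.195 to 0.263, against -0.222 to 0.179 for other pairs), so the replicate block is not a pairing, and it changed no other member's call. Over all genes the called share that was higher moved with quantile normalization from 37.7% to 56.5% after H/R, from 60.3% to 45.9% in EGR1OV against Sham and from 63.2% to 42.5% against H/R. Over all genes after H/R, voom called 995 against 594, and 7 were called without the 4 Gm23935-high libraries. Depth limits Ch25h (4 to 28 reads) and Nr1h3 (17 to 30 reads) most. Lpl had 48 to 170 reads, and at its level the log2(FPKM + 1) scale also compresses differences.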
